A study of Mus musculus with 8 samples.

Results

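The 6 genes of the PPAR and RXR nuclear receptors, Pparg, Ppara, Ppard, Rxra, Rxrb and Rxrg, were followed in interscapular brown fat of 8 mice. They were found by gene symbol in a count table of 54532 genes, each symbol named 1 row, and all 6 were among the 13756 genes that passed a filter on low counts. The 4 mice whose libraries carry the label KO were males, 7 months old, with a floxed Pparg gene and Myl1-Cre. They were set against 4 males of the same age with the floxed gene and no Cre, labelled WT. Both groups therefore carry the floxed allele, ate normal chow and spent 24 h at 4 °C before the fat was taken. Myl1-Cre drives the recombinase from the gene of a fast muscle myosin light chain, which the study used to reach a class of fat progenitors. Recombination is therefore limited to cells that express Myl1 or descend from such cells, and a whole-tissue library mixes them with all other cells. In bulk tissue, fewer cells of a type and less RNA per cell cannot be told apart.

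PPARs are transcription factors switched on by fatty acids and related lipids. Each binds DNA as a pair with an RXR, the shared partner receptor, at a repeat of the hexamer AGGTCA, and recruits coactivators or corepressors there. PPARγ drives fat cell formation and lipid storage, PPARα drives fatty acid oxidation and is more abundant in brown than in white fat, and PPARδ is found in most tissues and also favours fatty acid use. RXRα and RXRβ are widely expressed, and RXRγ is more restricted, with muscle among its main sites.

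Pparg is transcribed from several starts, and the downstream start gives the fat-cell form PPARγ2. The sequences upstream of an upstream start and of the downstream start are shown because Pparg is the floxed gene and a gene-level count adds up the transcripts of all its starts. They are from RefSeq, build GRCm38.p6, chromosome 6, plus strand, and capitals mark matches to the motifs searched on both strands. The motifs were the GC box (GGGCGG), the CCAAT box by its own letters, a C/EBP-type motif (TTGCNNAA), the TATA box (TATAAA), the receptor hexamer (AGGTCA) and its direct repeat with 1 base between, called DR1. DR1 holds the hexamer by its makeup, and no matches overlapped in the printed stretches.
Upstream start, chr6:115362099-115362291: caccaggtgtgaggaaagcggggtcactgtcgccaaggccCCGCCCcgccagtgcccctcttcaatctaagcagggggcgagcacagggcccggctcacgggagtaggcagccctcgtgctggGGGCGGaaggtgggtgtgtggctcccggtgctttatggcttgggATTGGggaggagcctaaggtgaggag
Downstream start, chr6:115421816-115422065: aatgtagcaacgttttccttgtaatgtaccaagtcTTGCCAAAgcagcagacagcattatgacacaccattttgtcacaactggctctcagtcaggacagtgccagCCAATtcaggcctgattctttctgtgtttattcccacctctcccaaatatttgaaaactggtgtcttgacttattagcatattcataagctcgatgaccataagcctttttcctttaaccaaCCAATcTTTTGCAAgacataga

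An annotated exon begins at the first of the 57 bases between the upper sequence and its start at 115362349, and these bases are not printed. The upstream window of 250 bases had a GC content of 63.6% and held GGGCGG at -127 and, on the minus strand, at -210, counted from the start, while the downstream window had 40.8% and no GGGCGG. In the 57 bases not printed, the upstream window also held AGGTCA at -9 and TATAAA on the minus strand at -29. TTGCNNAA, letters that C/EBP proteins favour, was found in the downstream window at -215 and -16 and is present in 9.56% of 32851 such windows. GGGCGG is present in 32.7% of them, CCAAT in 33.8%, TATAAA in 12.4% and AGGTCA in 14.0%. DR1, the pair motif of PPAR and RXR in its full letters, is present in 0.0335% of the windows and was in none of the windows of the 6 genes. The window before the Ppara start at 85735776 on chromosome 15 had a GC content of 76.4% and GGGCGG at -216 and -101. An annotated exon begins after the first 38 bases of that window. The match at -216 runs across the start of this exon, and that at -101 lies past it. These matches describe letters, and the counts do not say which start was used.

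The libraries held 12226608 to 16977010 counts in the group labelled KO and 12407466 to 19268945 in WT, and 30166 genes had no count in any library. Levels are CPM, counts scaled to a common library size with TMM factors, and changes are log2 fold changes, labelled KO over WT, with their standard error (SE). Between the groups 2 of the 6 receptor genes and 53 of all 13756 passed an adjusted p of 0.05 in edgeR, which is 0.385% of the genes tested, with 40 higher (0.291%) and 13 lower (0.0945%). The share was 0.385% in limma-voom and 0.767% in edgeR with no filter. DESeq2, run without this filter, called 1.49% of the 24360 genes with a p-value. Its adjustment by default leaves out genes with low counts, which stay in that total. In the main edgeR fit 15.2% of the genes tested were under an unadjusted p of 0.05. Groups that do not overlap were found for 8.10% of the genes tested. Fat cell markers were abundant in all libraries, with Ucp1, the heat-producing uncoupling protein, at 9303 ± 1473 CPM in the libraries labelled KO and 11441 ± 1272 CPM in WT, and the fatty acid carrier Fabp4 at 10243 ± 1160 CPM in the libraries labelled KO and 12066 ± 1207 CPM in WT (SD, n = 4 each).

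The targeted gene was higher in the libraries labelled KO. Pparg (ENSMUSG00000000440, GRCm38 chromosome 6, 115360951 to 115490399) had 279, 267, 269 and 320.1 CPM in the libraries labelled KO 1 to 4, against 201, 199.7, 186 and 202 CPM in WT 1 to 4. Every library labelled KO lay above every WT library, and labelled KO 4 was the highest. The log2 fold change was 0.52 ± 0.09 (SE), or 1.44-fold, with an adjusted p of 0.0328. The group is therefore called the libraries labelled KO throughout, and each direction given here rests on the labels as deposited. The labels do not say which exons are floxed, and the count covers all exons, so it checks the label in a limited way. The call ended in each of the 8 fits that left out 1 library, where the adjusted p ran from 0.0505 to 0.119 at log2 fold changes of 0.46 to 0.55.

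Ppara was the other receptor gene that passed, and it fell. Ppara (ENSMUSG00000022383, chromosome 15, 85734983 to 85802819) stood at 24.7, 44.0, 35.4 and 27.1 CPM in the libraries labelled KO, against 69.5, 83.4, 50.1 and 71.5 CPM in WT. The groups did not overlap, and the gap between the highest library labelled KO, number 2, and the lowest WT library, number 3, was small beside the range within each group. The log2 fold change was -1.07 ± 0.19 (SE) with an adjusted p of 0.0441, and WT was 2.09 times the level of the libraries labelled KO. Without labelled KO 2 or WT 3 the call held, at adjusted p of 0.018 and 0.024. It was lost without labelled KO 1 (0.145), 3 (0.129) or 4 (0.078) and without WT 1 (0.103), 2 (0.0803) or 4 (0.135), with log2 fold changes between -1.24 and -0.95 over the 8 fits.

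The third PPAR gene, Ppard (ENSMUSG00000002250, chromosome 17, 28232700 to 28301474), did not pass. It had 29.2, 30.4, 33.0 and 31.1 CPM in the libraries labelled KO and 31.4, 40.9, 28.0 and 34.6 CPM in WT, so the range of the libraries labelled KO lay inside that of WT. The log2 fold change was -0.13 ± 0.12 (SE, adjusted p = 0.637). Without WT 2, the highest library, it was -0.02.

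None of the 3 RXR genes passed in edgeR, DESeq2 or limma-voom, and none was under an unadjusted p of 0.05 in edgeR. Rxra (ENSMUSG00000015846, chromosome 2, 27676440 to 27762957), the usual partner of PPARs in fat, had 87.8, 93.6, 83.5 and 81.5 CPM in the libraries labelled KO, against 67.9, 87.0, 74.0 and 73.1 CPM in WT. WT 2 lay within the range of the libraries labelled KO and the other WT libraries lay below it. The log2 fold change was 0.20 ± 0.09 (SE, adjusted p = 0.347). Rxrb (ENSMUSG00000039656, chromosome 17, 34031812 to 34038399) had 64.6, 71.3, 68.4 and 75.5 CPM in the libraries labelled KO and 56.5, 71.7, 67.3 and 70.0 CPM in WT, a log2 fold change of 0.08 ± 0.09 (SE, adjusted p = 0.743). Rxrg (ENSMUSG00000015843, chromosome 1, 167598384 to 167639623) had 29.9, 30.4, 30.4 and 26.2 CPM in the libraries labelled KO and 37.5, 28.3, 26.2 and 33.3 CPM in WT, a log2 fold change of -0.10 ± 0.12 (SE, adjusted p = 0.737). Without WT 1, the lowest library for Rxrb and the highest for Rxrg, the values were 0.01 for Rxrb and 0.00 for Rxrg. For both genes the groups overlapped, and each WT range was wider than that of the libraries labelled KO. No exon of the 6 genes overlaps an exon of another annotated gene.

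**Figure D1:**
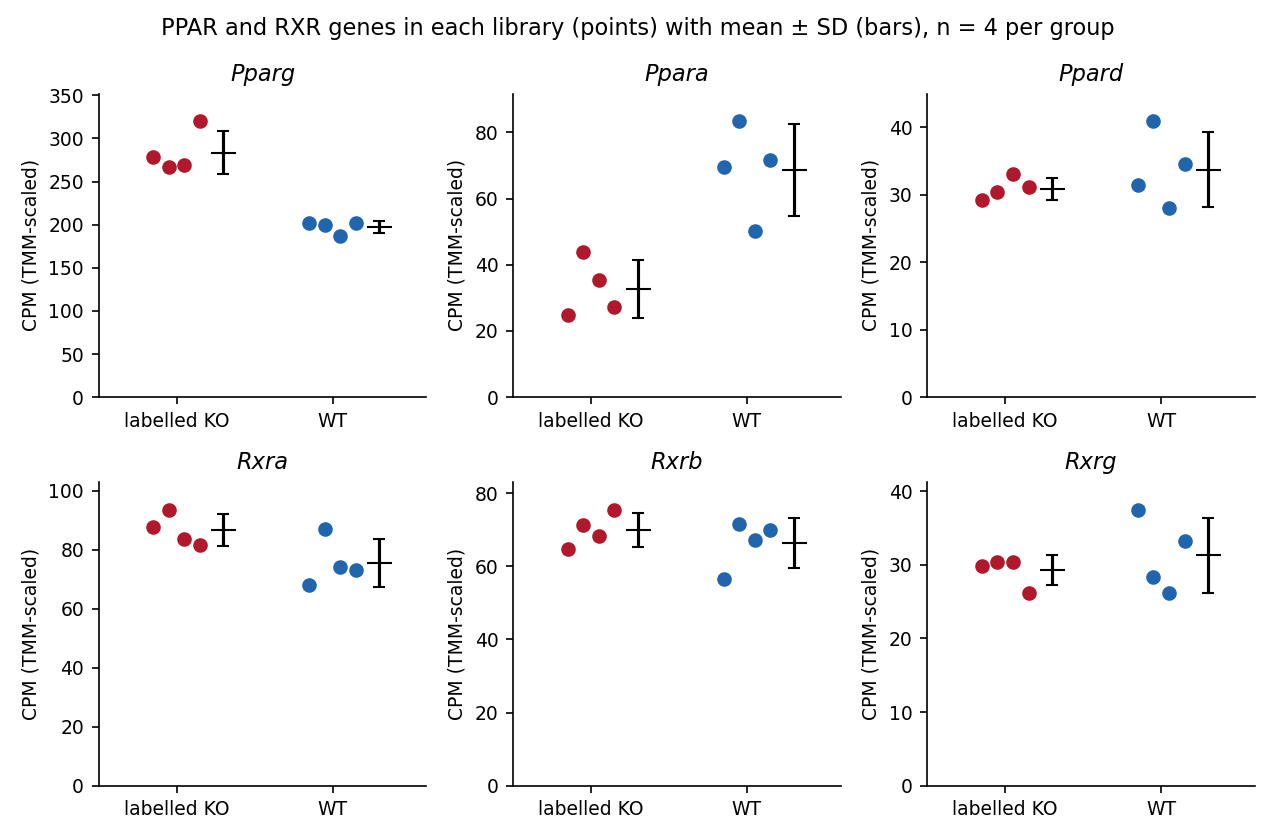
CPM of the 6 receptor genes, with 1 point per library, libraries labelled KO in red at the left and WT in blue at the right, and the mean ± SD of 4 libraries as bars. The groups stand apart for Pparg, higher in the libraries labelled KO, and for Ppara, lower in them, and overlap for Ppard, Rxra, Rxrb and Rxrg.

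Levels of different genes were set side by side per kilobase of exon. Pparg was the most abundant receptor gene, at 96.0 ± 8.43 CPM per kb in the libraries labelled KO and 66.8 ± 2.49 CPM per kb in WT (SD, n = 4 each), and no library of another receptor gene reached its range. In the libraries labelled KO the order below it was Rxrb at 17.6 ± 1.17, Rxra at 15.9 ± 0.981, Rxrg at 12.7 ± 0.889, Ppara at 8.55 ± 2.28 and Ppard at 4.12 ± 0.216 CPM per kb. There the ranges of Rxrb and Rxra overlapped, and so did those of Rxrg and Ppara. In WT Ppara came next after Pparg, at 17.9 ± 3.59, followed by Rxrb at 16.7 ± 1.72, Rxra at 13.8 ± 1.49 and Rxrg at 13.6 ± 2.21 CPM per kb, with ranges that overlap between neighbours. Ppard was lowest in WT too, at 4.49 ± 0.735 CPM per kb, and its range lay apart from the others. Ppara thus had rank 5 of the 6 genes in the libraries labelled KO and rank 2 in WT. With the length of the longest transcript, in place of all annotated exons, Rxrb (25.3 ± 2.59) stood above Ppara (20.1 ± 4.04) in WT. In the libraries labelled KO, Ppard (8.30 ± 0.436) then came within the range of Ppara (9.61 ± 2.56).

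In the PPAR family, Pparg held a larger and Ppara a smaller share in the libraries labelled KO. The values that follow are descriptions of levels per kb within each library, with no test, since they are built from the same members. Pparg made up 90.1, 85.3, 87.0 and 90.6% of the PPAR sum in the libraries labelled KO, against 75.4, 71.3, 79.0 and 74.6% in WT. Ppara made up 5.90 to 10.8% in the libraries labelled KO and 16.4 to 22.9% in WT. The level of Pparg over that of Ppara was 14.6, 7.88, 9.88 and 15.4 in the libraries labelled KO, against 3.77, 3.11, 4.83 and 3.67 in WT. For these quantities no library of a group reached the range of the other group, as the values of both genes already imply.

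Within the RXR family each of the 3 genes held a similar share when all annotated exons gave the length. With the longest transcript as length Rxrb stood further above the others. In the libraries labelled KO, Rxrb, Rxra and Rxrg were then at 26.6, 17.7 and 13.9 CPM per kb. In WT they were at 25.3, 15.4 and 14.8 CPM per kb. The shares that follow use all annotated exons. Rxra made up 34.3 ± 1.33% of the RXR sum in the libraries labelled KO and 31.3 ± 2.58% in WT (SD, n = 4 each). Rxrb made up 38.1 ± 2.64% in the libraries labelled KO and 37.8 ± 3.24% in WT, and Rxrg 27.6 ± 1.74% in the libraries labelled KO and 30.9 ± 5.27% in WT. The RXR sum was 46.2 ± 1.45 CPM per kb in the libraries labelled KO and 44.2 ± 2.06 CPM per kb in WT. The PPAR sum was 109 ± 7.29 CPM per kb in the libraries labelled KO and 89.2 ± 6.46 CPM per kb in WT, and it was 2.36 ± 0.195 times the RXR sum in the libraries labelled KO and 2.02 ± 0.0835 times in WT.

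**Figure D2:**
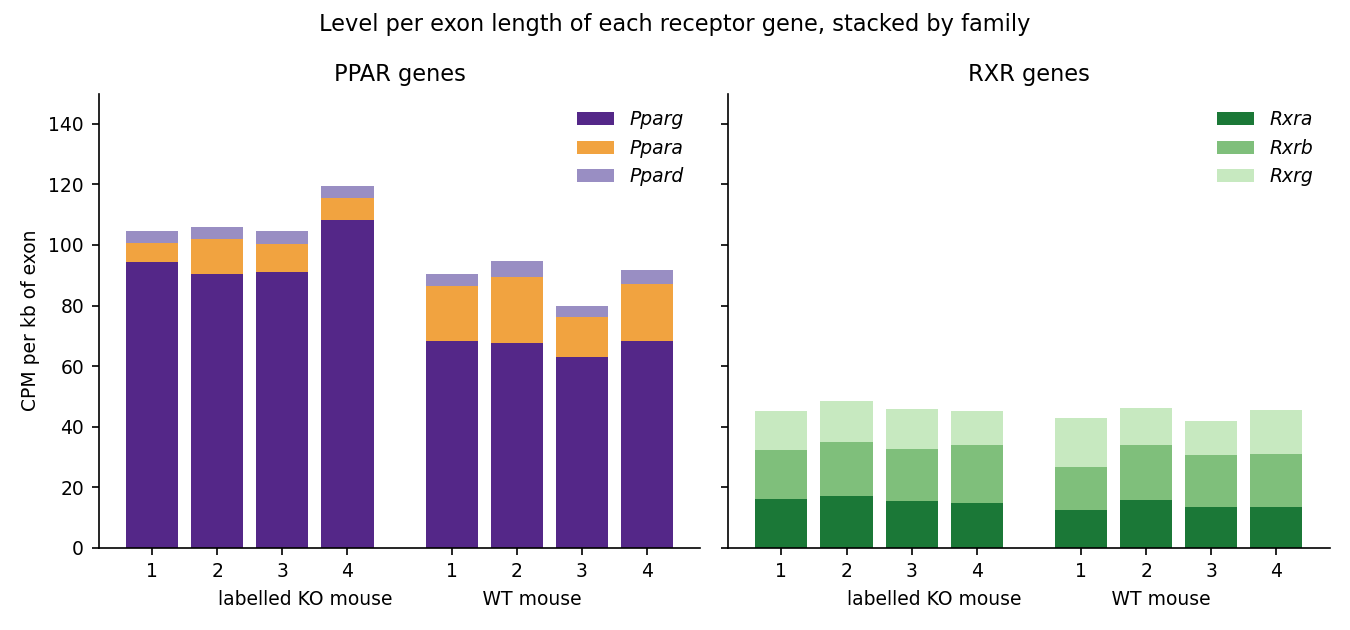
CPM per kb of exon in each library, stacked by gene for the PPAR family at the left and the RXR family at the right, with the 4 libraries labelled KO before the 4 WT libraries in each panel. The Ppara part of the PPAR bar is 5.90 to 10.8% in the libraries labelled KO and 16.4 to 22.9% in WT, while the RXR bars are of similar height and make-up.

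The receptor genes also differed in how much they varied among mice. Ppara varied most in both groups, with a coefficient of variation of 26.7% in the libraries labelled KO and 20.1% in WT, where counting error alone gives 4.50% in the libraries labelled KO and 3.13% in WT. Pparg varied by 8.78% in the libraries labelled KO and 3.73% in WT, with counting error of 1.53% in the libraries labelled KO and 1.87% in WT. Ppard varied by 5.25% in the libraries labelled KO and 16.4% in WT, and Rxrg by 6.98% in the libraries labelled KO and 16.2% in WT, a difference in spread that was not tested. Rxra varied by 6.18% in the libraries labelled KO and 10.8% in WT, and Rxrb by 6.62% in the libraries labelled KO and 10.3% in WT.

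Across the 8 libraries, with each group's mean taken out, the log2 CPM of the receptor genes followed each other loosely. Pearson's r, given as a description over 8 libraries that share depth and tissue make-up, was highest for Ppara with Ppard at 0.65 and lowest for Rxrb with Rxrg at -0.70. Pparg and Ppara had an r of -0.20. Among 11809 other genes, the closest to Pparg by this measure were Prkag2, which encodes part of the kinase AMPK (r = 0.98), Aco1 (0.97) and Dyrk1b (0.97). Prkag2 followed Pparg within the groups although it was lower in the libraries labelled KO, at 61.5 ± 8.67 CPM against 94.6 ± 4.71 CPM in WT (adjusted p = 0.0289). The closest to Ppara were Ube2j2 (0.99), Nifk (0.98) and Tex2 (0.98). For Ppard they were Mfsd14b (0.99), H1f0 (0.97) and Lncbate1 (0.97), for Rxra Itgb5 (0.99), Nptxr (0.98) and Git1 (0.97), for Rxrb Nrde2 (0.98), St7 (0.96) and Gper1 (0.96), and for Rxrg Tsr2 (0.97), G3bp2 (0.97) and Cpeb3 (0.97). Each of the 6 genes had 3 neighbours at 0.96 or more, picked as the highest of 11809 values over 8 libraries.

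Genes that PPARγ is known to switch on in fat cells lay mostly lower in the libraries labelled KO, in which Pparg was higher. Below 0 on the log2 scale were 35 of the 39 targets tested (of 40 listed, Olr1 being below the filter), against 49.7% of all genes tested, and the median was -0.25 against 0.00 over all genes tested. The fat cell markers described below had the same median, -0.25, with 8 of 11 genes below 0. Both lists hold Fabp4, Plin1 and Ucp1, and they were not tested against each other. In edgeR 2 of the 39 passed, both lower, against 0.385% of all genes tested. In DESeq2 6 passed, also lower, against 1.49% of its genes with a p-value. At an unadjusted p under 0.05 in edgeR, 1 was higher and 12 lower, against 15.2% of all genes tested in either direction. Klb, the co-receptor for FGF21, was at 10.7, 13.4, 15.6 and 17.1 CPM in the libraries labelled KO, against 38.3, 34.7, 24.1 and 28.9 CPM in WT, and fell by 1.14 on the log2 scale (SE 0.17, adjusted p = 0.0163). Pck1, whose enzyme supplies the glycerol backbone of stored fat, was at 742, 894, 725 and 853 CPM in the libraries labelled KO, against 1711, 1396, 1162 and 1406 CPM in WT, and fell by 0.82 (SE 0.13, adjusted p = 0.0218). For both genes every library labelled KO lay below every WT library.

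The next 2 targets by p, both proteins of fat release from the lipid droplet, did not pass in edgeR and did in DESeq2. The droplet coat protein Plin1 stood at 759 ± 84.6 CPM in the libraries labelled KO and 1073 ± 124 CPM in WT (log2 fold change -0.50 ± 0.12 SE, adjusted p = 0.116 in edgeR and 0.00655 in DESeq2). The hormone-sensitive lipase Lipe stood at 820 ± 126 CPM in the libraries labelled KO and 1155 ± 125 CPM in WT (-0.49 ± 0.13, adjusted p = 0.133 in edgeR and 0.0159 in DESeq2), and an antisense transcript overlaps its exons, so its value is uncertain. The most abundant targets, Fabp4 and Ucp1, had log2 fold changes of -0.24 ± 0.13 and -0.30 ± 0.14 and did not pass. The call of Klb was lost without labelled KO 1 or 3 or WT 2, and that of Pck1 without any library but labelled KO 2 and WT 3.

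Targets of PPARα and PPARδ, mostly enzymes of fatty acid oxidation, had a median of -0.24 with 28 of 36 measured genes below 0. None passed in edgeR or limma-voom, and DESeq2 called 1 higher and 1 lower. At an unadjusted p under 0.05, 2 were higher and 10 lower, against 15.2% of all genes tested in either direction. The list shares Acsl1, Angptl4 and Fgf21 with the PPARγ list. Fgf21 had the highest log2 fold change of both lists, 1.04, and did not pass in edgeR. Cpt1a, which brings fatty acids into mitochondria, also stood higher against the direction of the list. It was at 49.8, 65.7, 58.5 and 48.8 CPM in the libraries labelled KO and 38.3, 44.7, 35.7 and 38.5 CPM in WT. The groups stood apart, and the log2 fold change was 0.50 ± 0.11 (SE, adjusted p = 0.103 in edgeR and 0.0157 in DESeq2). It did pass in edgeR once the mouse number was a block (adjusted p = 0.0428), and likewise when low counts were kept (adjusted p = 0.0444). Pex11a, a peroxisome division protein, had -0.29 ± 0.08, the carnitine transporter Slc22a5 -0.45 ± 0.13 and the peroxisomal thiolase Acaa1b -0.34 ± 0.10, with adjusted p from 0.162 to 0.166. The most abundant members, the fatty acid activating enzyme Acsl1 and the dehydrogenase Acadvl, were at 1996 ± 226 and 2082 ± 200 CPM in the libraries labelled KO and 2654 ± 338 and 2408 ± 110 CPM in WT. The values of Acaa1b, Acsl1 and Acadvl are uncertain, because each shares exon bases with an antisense neighbour. Cyp4a10, Cyp4a14, Creb3l3 and Fabp1, liver targets of PPARα, were below the filter on low counts.

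Coregulators of the receptors gave no call in edgeR. Of 23 coactivators 16 lay below 0, with a median of -0.07, and none passed in edgeR or limma-voom. At an unadjusted p under 0.05, 3 were lower and 0 higher, against 15.2% of all genes tested in either direction. DESeq2 called 2, both lower. They were the p160 coactivator Ncoa1, at 39.3 ± 6.13 CPM in the libraries labelled KO and 56.2 ± 9.25 CPM in WT (log2 fold change -0.52 ± 0.14 SE, adjusted p = 0.147 in edgeR and 0.0457 in DESeq2), and Ncoa4, also the receptor that sends ferritin to lysosomes, at 33.4 ± 4.66 CPM in the libraries labelled KO and 51.6 ± 12.1 CPM in WT (-0.63 ± 0.17, adjusted p = 0.148 in edgeR and 0.0346 in DESeq2). Ncoa4 also passed in edgeR without WT 3 (-0.78, adjusted p = 0.0235) and with no filter (0.0465). An antisense transcript overlaps exons of Ncoa1. Wwtr1 had -0.16 ± 0.07 and Cited2 0.34 ± 0.16. Lpin1, a phosphatidate phosphatase that also coactivates, was the most abundant, at 599 ± 91.4 CPM in the libraries labelled KO and 711 ± 109 CPM in WT. Ppargc1a, the cold-induced coactivator PGC-1α, had 58.9, 87.9, 77.5 and 54.8 CPM in the libraries labelled KO, against 154, 86.3, 55.9 and 99.9 CPM in WT. Its groups overlapped widely (log2 fold change -0.51 ± 0.26 SE, adjusted p = 0.381), and without WT 1 the value was -0.21.

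Of 12 corepressors 8 lay below 0, with a median of -0.04, and none passed in edgeR, DESeq2 or limma-voom. At an unadjusted p under 0.05, 1 was lower and 0 higher, against 15.2% of all genes tested in either direction. That gene was Tbl1xr1, which exchanges corepressors for coactivators, at 30.3 ± 1.91 CPM in the libraries labelled KO and 36.7 ± 2.34 CPM in WT (-0.28 ± 0.09 SE, adjusted p = 0.189). Tbl1x had -0.13 ± 0.08, Gps2 0.20 ± 0.13 and Nrip1 -0.29 ± 0.22. Single libraries weighed on these values, with Gps2 at 0.09 without labelled KO 4 and Nrip1 at -0.06 without WT 2 and -0.48 without labelled KO 2. The most abundant, Safb and the nuclear receptor corepressor Ncor1, had 0.03 ± 0.11 and -0.03 ± 0.10, with signs that turned in some fits without 1 library, and exons of Ncor1 overlap genes on the opposite strand.

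Transcription factors known to act on the Pparg gene showed no common direction, with 13 of 26 measured genes above 0 and a median of 0.03. Gata3 and Egr2 were below the filter. None passed in edgeR or limma-voom. At an unadjusted p under 0.05, 2 were higher and 2 lower, against 15.2% of all genes tested in either direction. DESeq2 called 1, which was lower. It was Cebpa, which maintains Pparg expression in fat cells, at 267, 299, 312 and 383 CPM in the libraries labelled KO, against 443, 403, 393 and 517 CPM in WT (-0.48 ± 0.13 SE, adjusted p = 0.148 in edgeR and 0.0327 in DESeq2). Its groups did not overlap. An antisense transcript overlaps its exons. Klf15, an adipogenic factor, stood at 80.2 ± 10.6 CPM in the libraries labelled KO and 62.8 ± 3.11 CPM in WT (0.35 ± 0.10, adjusted p = 0.16). The brown fat factor Ebf2 had -0.38 ± 0.14, Klf4 0.39 ± 0.15 and the lipogenic factor Srebf1 -0.14 ± 0.16, with adjusted p of 0.259, 0.263 and 0.716, and exons of Ebf2 and Srebf1 overlap a gene on the opposite strand.

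Receptors that share RXR as their partner gave a median of 0.01, with 6 of 10 measured genes above 0. Nr1h4, Nr1i2 and Nr1i3 were below the filter. None passed in edgeR, DESeq2 or limma-voom. At an unadjusted p under 0.05, 1 was higher and 0 lower, against 15.2% of all genes tested in either direction. That gene was Nr4a1, an immediate early orphan receptor, at 24.6 ± 6.14 CPM in the libraries labelled KO and 17.5 ± 4.80 CPM in WT (0.49 ± 0.22 SE, adjusted p = 0.312). The vitamin D receptor Vdr was near the filter on low counts, with -0.74 ± 0.36. The thyroid hormone receptors Thra and Thrb had -0.19 ± 0.11 and 0.14 ± 0.13, and the oxysterol receptor Nr1h3 -0.06 ± 0.08. Exons of Thra overlap those of Nr1d1 on the opposite strand, and exons of Nr1h3 those of another transcript on its own strand.

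**Figure D3:**
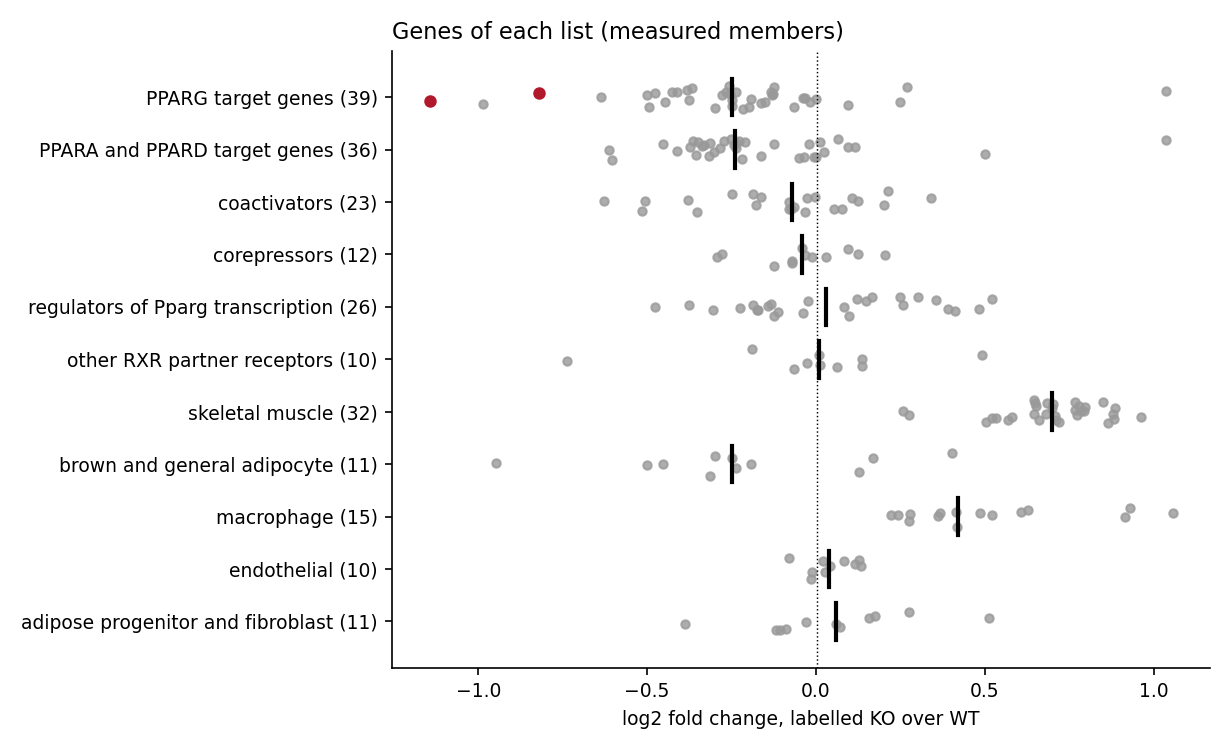
Log2 fold change, labelled KO over WT, of each measured gene in each list, with the number measured in brackets, the list's median as a black bar and the median of all genes tested as a dotted line. Red points passed an adjusted p of 0.05 in edgeR, which were Klb and Pck1, and both target lists and the adipocyte markers lie mostly below 0 while the skeletal muscle and macrophage markers lie above it.

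Markers of cell types were read beside the receptors. The 32 skeletal muscle genes were all above 0 (median 0.70), and their summed level was 15682 to 29171 CPM in the libraries labelled KO and 8137 to 22106 CPM in WT. Myh4, a fast myosin, was at 3313 ± 908 CPM in the libraries labelled KO and 1792 ± 827 CPM in WT, and skeletal actin Acta1 at 2327 ± 602 CPM in the libraries labelled KO and 1481 ± 543 CPM in WT. None of the 32 passed in edgeR or limma-voom. DESeq2 called 5, against 1.49% of its genes with a p-value. At an unadjusted p under 0.05, 19 were higher, against 15.2% of all genes tested in either direction. All 15 macrophage genes lay above 0 (median 0.42). Their summed level was 129 to 229 CPM in the libraries labelled KO and 119 to 170 CPM in WT. None of the 15 passed in edgeR or limma-voom, and DESeq2 called 2, both higher, against 1.49% of its genes. At an unadjusted p under 0.05, 3 of the 15 were higher, against 15.2% of all genes tested in either direction. The most abundant macrophage genes, Lyz2 and Lgals3, had 0.36 ± 0.22 and 0.92 ± 0.26. Without labelled KO 2, which had 36.5 CPM of Lgals3, that gene was at 0.54, and Lyz2 ran from 0.23 without labelled KO 1 to 0.55 without labelled KO 4. Lgals3 was among the calls of DESeq2, at an adjusted p of 0.0287, and of edgeR when low counts were kept, at 0.0402. Of 11 fat cell markers 8 lay below 0 (median -0.25), with summed levels of 24300 to 30981 CPM in the libraries labelled KO and 29536 to 35342 CPM in WT. The endothelial list had a median of 0.04, with Kdr at -0.08 ± 0.14 and Eng, whose exons overlap Fpgs on the opposite strand, at 0.03 ± 0.11, both of which changed sign in some fits without 1 library, and the progenitor and fibroblast list 0.06, with Dcn at 0.27 ± 0.10 and Ly6a at 0.17 ± 0.11. None of the fat cell, endothelial and progenitor genes passed in edgeR or limma-voom. In that order, 0, 0 and 2 were higher and 3, 0 and 0 lower at an unadjusted p under 0.05. The share over all genes tested was 15.2% in either direction. DESeq2 called 2 lower fat cell markers and 1 higher progenitor gene, against 1.49% of its genes. No marker of the 5 lists was at 0 in all libraries.

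The receptor genes were set against the muscle score, the mean log2 CPM of the 32 muscle genes. The score was 9.03 ± 0.44 in the libraries labelled KO and 8.31 ± 0.59 in WT (SD, n = 4 each, exact two-sided permutation p = 0.0857, the smallest possible being 0.0286). Labelled KO 4 had a score of 8.38, inside the WT range of 7.49 to 8.91, and it had the highest Pparg level of all libraries and a Ppara level below every WT library. This describes 1 library, and what muscle content does to these levels was not tested. With the score as a covariate the log2 fold change of Pparg was 0.60 ± 0.10 (SE, adjusted p = 0.0469) and that of Ppara -1.27 ± 0.22 (adjusted p = 0.052), while Rxra went to 0.06 ± 0.10. Within the groups, r with the score was 0.82 for Rxra, 0.39 for Ppara and -0.59 for Pparg, as a description over 8 libraries. It was 0.45 for Ppard, 0.45 for Rxrb and -0.29 for Rxrg. With the score as a covariate, the medians of the PPARγ and the PPARα and PPARδ target lists were -0.14 and -0.23, and Klb (-0.99 ± 0.19, adjusted p = 0.102) and Pck1 (-0.68 ± 0.15, adjusted p = 0.152) missed the threshold. The part of macrophage content in these results was not tested.

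**Figure D4:**
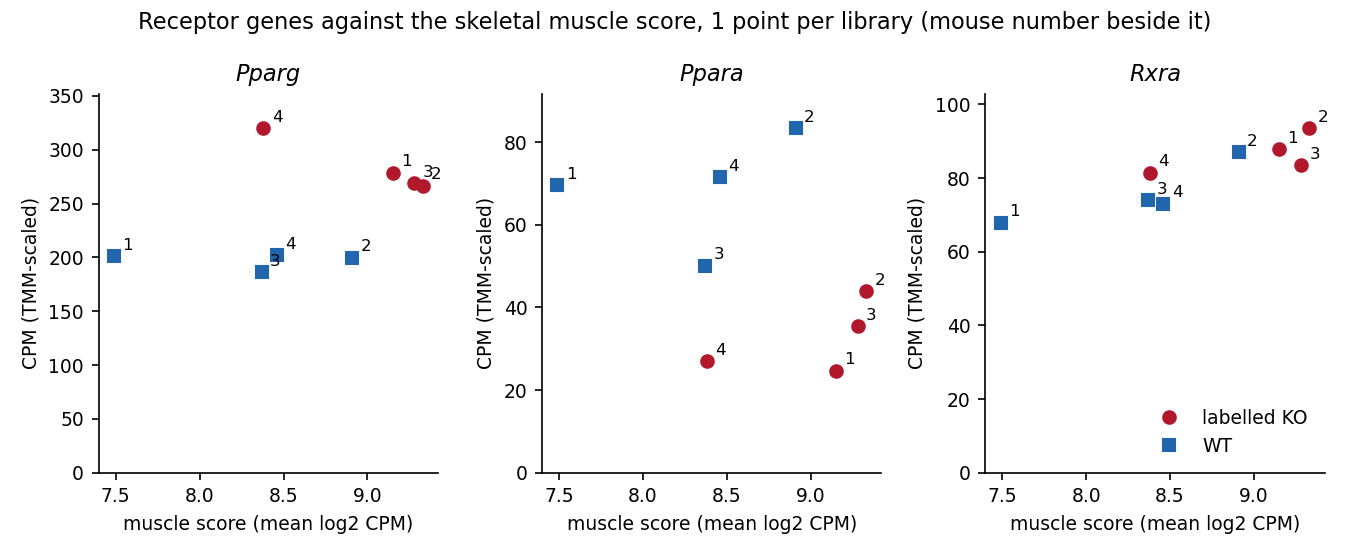
CPM of Pparg, Ppara and Rxra against the muscle score of each library, with libraries labelled KO as red circles and WT as blue squares, numbered by mouse. Labelled KO 4 has a score within the WT range, and what muscle content does to the Pparg and Ppara levels was not tested. Rxra, with an r of 0.82 to the score within the groups, tends to lie higher where the score is higher.

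**Figure D5:**
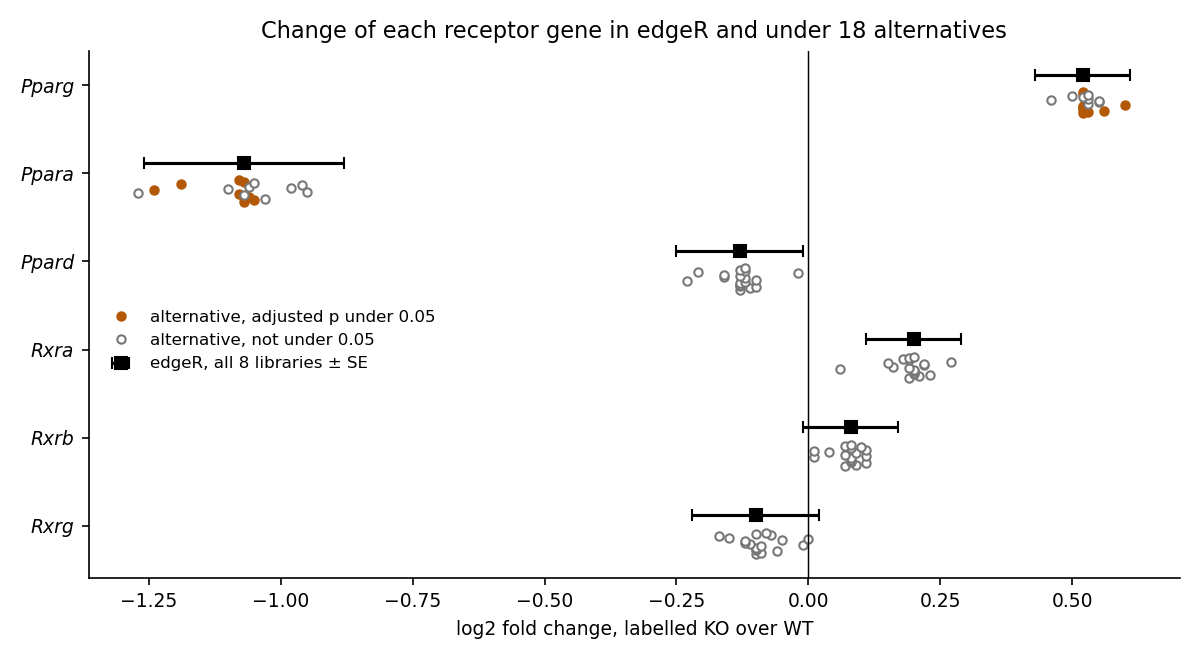
Log2 fold change, labelled KO over WT, of each receptor gene with all 8 libraries (squares with SE) and under each alternative (circles, filled where the adjusted p was under 0.05). Pparg lies at 0.46 to 0.60 and Ppara at -1.27 to -0.95 in all of them, with and without a call, and the other 4 genes have no filled circle.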

How the data were processed

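RNA-seq read counts of brown fat from 8 mice were analysed, grouped by the genotype in the sample titles. Libraries were stranded TruSeq mRNA libraries from total RNA, per the labels' protocols. The submitters' processing notes name HISAT2, featureCounts (Subread), SAMtools, Trimmomatic and FastQC, and build GRCm38. Which versions, settings, strandedness option and gene annotation were used is not stated there. The values the authors deposited are whole-number counts per Ensembl gene without normalization. Nothing in the labels says that mice of a group came from separate litters. The p-values therefore rest on the variation between these mice and may not cover variation between litters.

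From the counts, TMM-scaled CPM were computed, genes were filtered with filterByExpr, and genotype was tested with the quasi-likelihood F-test of edgeR 4.0.16 (R 4.3.3, with limma 3.58.1 beside it) with Benjamini-Hochberg adjustment over all 13756 genes and a threshold of 0.05. SE is the absolute log2 fold change over the square root of F. The fit was checked on simulated counts. Exon lengths, positions and overlaps are from GENCODE mouse release 21 (GRCm38), which held 99.9% of the IDs. It may differ from the release used for counting. Log2 CPM used a prior count of 2. A count of 0 in a library allowed up to 0.156 to 0.245 CPM (3 counts, counting error only). Replicates all differed by more than counting noise, with a chi-square of 10.4 to 53.0 per degree of freedom.

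The 6 receptors and the 11 gene lists were chosen with earlier results of these data known. Lists are described by counts and medians. The muscle score, 1 value per library, was compared between groups with an exact permutation test. The text names the receptors, for each pathway list up to 4 genes past the threshold or else with the smallest p, and the 2 most abundant of every list, and the 3 genes most like each receptor (mean CPM of at least 1, predicted genes skipped). Alternatives were DESeq2 1.42.0, limma-voom, RLE, upper-quartile and total count scaling, no filter and a filter of 1 CPM in 4 libraries, robust dispersion, mouse number as a block, the muscle score as a covariate, each library left out, and the longest transcript as length.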

Additional observations from a re-analysis of the deposited data

Results flagged for a closer look

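In 96 groups of 4 libraries (48 genes, both genotypes), 8 held a library far from the other 3 by Dixon's ratio, where chance gives about 1 group in 20. Among the receptors, WT 3 had 186 CPM of Pparg against 199.7 to 202 CPM in the other WT libraries. Labelled KO 4 had 26.2 CPM of Rxrg against 29.9 to 30.4 CPM in the rest of its group. In the libraries labelled KO, library 1 had 1785 CPM of Acadvl against 2148 to 2203 CPM, and library 2 had 16.9 CPM of Cited2 against 14.8 to 15.1 CPM. WT 3 had 255 CPM of Eng against 194 to 200.2 CPM in the other WT libraries, 888 CPM of Plin1 against 1123 to 1144 CPM and 61.4 CPM of Slc22a5 against 81.5 to 83.1 CPM. WT 2 had 67.4 CPM of Lyz2 against 47.7 to 48.0 CPM. WT 3 was the library in 4 of the 8 cases, and it also had the lowest Ppara level of its group.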

How the results depend on the processing

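Leaving out each library in turn gave log2 fold changes of 0.46 to 0.55 for Pparg (no call in 8 fits), -1.24 to -0.95 for Ppara (a call in 2 of 8) and -0.17 to 0.00 for Rxrg, which turned to just above 0 without WT 1. Such fits have fewer libraries. The call of Ppara was lost too under total count scaling (-1.03, adjusted p = 0.077), robust dispersion (-1.07, 0.0756) and the muscle score as a covariate (-1.27, 0.052), and the cause was not tested. Pparg passed under all 10 alternatives that kept the 8 libraries, and Ppard, Rxra and Rxrb kept their direction and no call in all 18, Rxrb at as little as 0.01 (without WT 1 and with the covariate). The genes past the threshold numbered 53, but 363 in DESeq2 run without the filter, 187 in edgeR with no filter, 155 with the block, 27 with the covariate and 24 to 75 without 1 library. The medians of both target lists moved by less than the spread between mice, between -0.30 and -0.14 for PPARγ targets and -0.29 and -0.15 for PPARα and PPARδ targets.

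The labels do not say whether mouse numbers pair the libraries, and these values do not settle it. Deviations of same-numbered libraries correlated at 0.02, 0.40, 0.03 and 0.17, and not every library correlated best with its own number. With the mouse number as a block Pparg had 0.52 (adjusted p = 0.0354) and Ppara -1.08 (0.0173).

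Of 756 values of the other 42 named genes under alternatives, 721 kept direction and side of the threshold, 12 gained a call (Cebpa, Cpt1a, Lgals3, Lipe, Ncoa1, Ncoa4 and Plin1, of which Cpt1a also under the block), 11 lost one (Klb and Pck1), and 12 changed sign, all of genes with no call. With the muscle score as a covariate these were Acta1 (-0.01), Lyz2 (-0.06) and Srebf1 (0.03), and without 1 library Eng (-0.04 to 0.13), Kdr (-0.17 to 0.08), Ncor1 (-0.09 to 0.06) and Safb (-0.07 to 0.11).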
